A study of Mus musculus with 4 samples.

Results

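The Krüppel-like factors described here are 10 members of a family of DNA-binding proteins, chosen by symbol (Klf2, Klf3, Klf4, Klf5, Klf6, Klf7, Klf9, Klf10, Klf13 and Klf15) in a table of 18383 genes of mouse renal tubular epithelial cells. All 10 had a row, and all 10 were among the 15002 genes that passed the filter on low counts. Cells of KMS mice, which carried floxed SETD2 and floxed MYC alleles and 1 copy of the KspCre transgene (SETD2fl/fl MYCfl/fl KspCre/+), were compared with cells of KM mice, which carried the floxed MYC alleles and KspCre alone (MYCfl/fl KspCre/+). All animals were of the C57BL/6 strain and 8 weeks old, the cells were isolated from kidney cortex, and each genotype had 2 libraries. The promoter of kidney-specific cadherin drives the Cre recombinase of KspCre in tubular epithelium, so other cells in the preparation would keep the floxed genes. The series title calls the groups MYC+ and MYC+; SETD2-/-, and the labels do not say what Cre does to the MYC allele. SETD2 is the enzyme that trimethylates histone H3 at lysine 36. The question was which transcripts differ when SETD2 is targeted on the MYC background.

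Krüppel-like factors bind CACCC and GC-rich sequences through a row of zinc fingers near their carboxyl end, and the remainder of each protein decides whether it activates or represses. Some, such as KLF4, KLF6 and KLF10, are switched on quickly by growth factors or stress, while KLF9 and KLF15 are induced by glucocorticoids, and KLF9 also by thyroid hormone. In kidney, KLF15 is abundant and controls amino acid and glucose metabolism, KLF2 and KLF4 act in endothelium, KLF4, KLF6 and KLF15 are known from podocytes, and KLF5 from collecting duct and urothelium.

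Total counts were 9780050 and 8886496 in the KMS libraries, against 18639040 and 14955148 in the KM libraries. Setd2 had 58.3 and 49.1 CPM (counts scaled to a common library size with TMM factors) in KMS, against 54.2 and 58.0 CPM in KM, and Myc had 6.09 and 2.18 CPM in KMS, against 5.28 and 6.97 CPM in KM. The floxed exons are not named in the labels and the table counts whole genes, so these values do not check the genotypes. In both genotypes Xist was abundant in replicate 1, and Y-linked transcripts in replicate 2. Proximal tubule markers were abundant, with all 12 listed genes present, but podocyte markers summed to 2829 and 2623 CPM in KMS, against 2391 and 1231 CPM in KM, and endothelial markers to 1702 and 976 CPM in KMS, against 1558 and 1245 CPM in KM, so the preparations also held RNA of glomeruli and vessels. Replicates differed within both genotypes. Injured tubule markers summed to 3270 and 1277 CPM in KMS, against 4230 and 9876 CPM in KM. Markers of urothelium and basal keratins summed to 1.34 and 2.55 CPM in KMS, against 15.8 and 115 CPM in KM.

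In KMS cells, Klf9 and Klf15 were higher by value, by 1.07 and 1.40 on the log2 scale, and 8 of the 10 members were lower by value, among them Klf4 (log2 fold change -1.17 ± 0.25 SE), Klf7, Klf6 and Klf10. None of the 10 passed the test over all genes, where edgeR called 0.0333% of the table at an adjusted p under 0.05. An unadjusted edgeR p under 0.05 was reached by 7 members, 2 of them higher and 5 lower in KMS, where 26.3% of all tested genes reached it (12.2% higher and 14.1% lower). At an adjusted p under 0.1, which 8.11% of tested genes met, there were 3 members, Klf9, Klf15 and Klf4. The libraries of the genotypes did not overlap for 9 of 10 members, against 60.3% of tested genes. KMS lay below KM for 7 members (31.3% of tested genes) and above it for 2 (29.0% of tested genes). The median log2 fold change of the members was -0.56, against -0.01 over all tested genes.

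**Figure D1:**
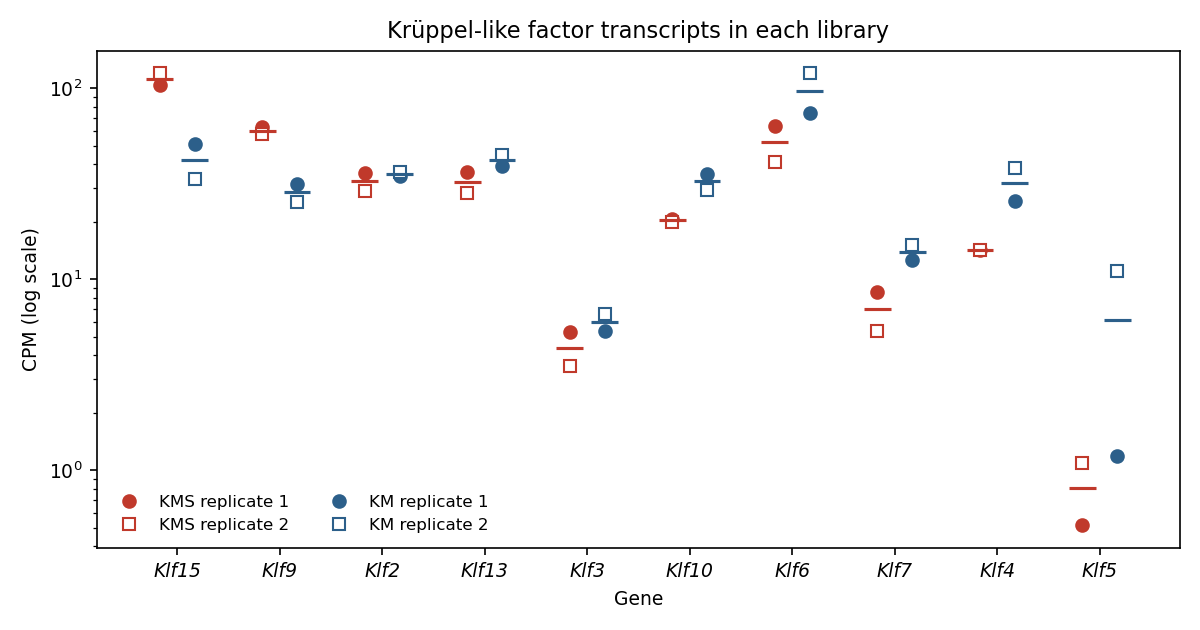
CPM of the 10 Krüppel-like factors in each library on a log axis, with genes ordered by log2 fold change, KMS in red left of KM in blue, replicate 1 filled and replicate 2 open, and a bar at each mean. Klf15 and Klf9 lie higher in both KMS libraries, Klf2 overlaps, and the other 7 lie lower in both KMS libraries, with KM replicate 2 far above KM replicate 1 for Klf5.

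Klf15 (chromosome 6, 90462576 to 90475238, GRCm38) encodes an activator of amino acid breakdown and gluconeogenesis. It had 103.7 and 119.5 CPM in KMS, against 51.1 and 33.4 CPM in KM. Both KMS libraries were above both KM libraries, with means of 111.6 ± 11.2 CPM in KMS and 42.2 ± 12.5 CPM in KM (SD, n = 2 each). Klf15 was 2.64-fold higher by value in KMS, a log2 fold change of 1.40 ± 0.25 (SE), with an edgeR adjusted p of 0.0769. Klf9 (chromosome 19, 23141226 to 23168134), a small repressor induced by glucocorticoids and thyroid hormone, had 62.7 and 57.2 CPM in KMS, against 31.6 and 25.4 CPM in KM. Here too the libraries separated by genotype, and the replicates of each genotype lay close together (60.0 ± 3.85 CPM in KMS and 28.5 ± 4.35 CPM in KM, SD, n = 2 each). The log2 fold change of Klf9 was 1.07 ± 0.19 (SE), with an edgeR adjusted p of 0.0766. In the authors' deposited table, which names no test, Klf15 had an adjusted p of 0.000596 and Klf9 of 0.0288, and these were the only members under 0.05, where 2.22% of that table's genes were. With each library left out in turn, the log2 fold change of Klf15 ran from 1.13 to 1.75, and that of Klf9 from 0.93 to 1.25. For both genes the lowest value came without KM replicate 2 and the highest without KM replicate 1.

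The 250 bases before the RefSeq start sites of both genes are shown because these were the 2 members of smallest p and the ones that lay higher in KMS. Capitals mark CACCC (or GGGTG on the opposite strand), GGGCGG (or CCGCCC), and the E-box CACGTG bound by MYC with MAX and by the clock factors. They also mark TGANTCA, which is looser than the AP-1 site TGA(C/G)TCA and includes it, and TGACGT, the shorter core of the cAMP response element. The sequences are from RefSeq on GRCm38.p6, both on the plus strand, at chr6:90462326-90462575 for Klf15 and chr19:23140976-23141225 for Klf9.
Klf15: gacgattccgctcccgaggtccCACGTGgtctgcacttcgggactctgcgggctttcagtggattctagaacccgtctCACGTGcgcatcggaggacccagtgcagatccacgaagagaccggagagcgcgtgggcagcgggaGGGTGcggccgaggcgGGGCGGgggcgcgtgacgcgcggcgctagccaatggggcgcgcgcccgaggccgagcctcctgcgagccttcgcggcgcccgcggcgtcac
Klf9: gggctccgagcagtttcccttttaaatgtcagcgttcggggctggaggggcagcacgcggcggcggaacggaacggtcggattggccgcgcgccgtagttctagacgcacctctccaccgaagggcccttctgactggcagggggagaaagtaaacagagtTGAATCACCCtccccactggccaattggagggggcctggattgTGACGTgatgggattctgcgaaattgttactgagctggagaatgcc
The Klf15 window holds 2 E-boxes, a CACCC box and a GC box, and 37 CpG dinucleotides. The Klf9 window holds no E-box and no GC box. It has 1 TGANTCA match that overlaps its CACCC box, 1 cAMP core, and 18 CpG dinucleotides. The letters of that match are TGAATCA, without the C or G in the middle of the AP-1 site.

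Of 32851 RefSeq promoter windows of the same length, searched on both strands, 6.02% held an E-box, 52.0% a CACCC box and 32.7% a GC box. TGANTCA occurred in 6.75% of them and the cAMP core in 6.47%. Windows were found for 8 members, all but Klf5 and Klf10. An E-box occurred in 3 of the 8 (Klf15, Klf4 and Klf6), a CACCC box in 6 and a GC box in 7. TGANTCA occurred in 1 (Klf9) and the cAMP core in 2 (Klf9 and Klf13). No member window held the full cAMP response element TGACGTCA (1.55% of windows), the MEF2 core TAAAAATA (2.45%), the palindromic glucocorticoid response element (0.00913%) or the SMAD box GTCTAGAC (0.167%). All 8 windows were richer in CpG than the median window, with 13 to 37 CpG dinucleotides against 6, and their GC content ran from 59.2% to 78.4% against a median of 52.4%. These matches are descriptions of the letters, and neither binding nor a response was measured.

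Among the members known for rapid induction, Klf4 (chromosome 4, 55527143 to 55532466), which drives epithelial differentiation and acts in endothelium and podocytes, had 14.3 and 14.2 CPM in KMS, against 25.6 and 38.3 CPM in KM. The KMS libraries were almost equal and both lay under the lower KM library, while KM replicate 2 was well above KM replicate 1. The log2 fold change of Klf4 was -1.17 ± 0.25 (SE), with an edgeR adjusted p of 0.0886. It was -0.84 without KM replicate 2, -1.42 without KM replicate 1, -1.13 without KMS replicate 1 and -1.14 without KMS replicate 2. The Klf4 window is printed, chosen after the values were seen, because Klf4 had the smallest p among the members that lay lower in KMS. It is at chr4:55532476-55532725 on the minus strand of GRCm38.p6, written 5′ to 3′ in the direction of transcription with the same capitals.
Klf4: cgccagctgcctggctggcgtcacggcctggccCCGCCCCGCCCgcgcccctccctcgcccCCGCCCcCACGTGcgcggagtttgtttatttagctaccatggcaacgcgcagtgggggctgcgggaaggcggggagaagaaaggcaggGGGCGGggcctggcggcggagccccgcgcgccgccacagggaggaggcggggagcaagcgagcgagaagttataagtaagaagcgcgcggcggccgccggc
It shares an E-box with the Klf15 window and holds 4 GC boxes, of which a pair overlap, and no CACCC box.

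Klf10 (chromosome 15, 38291463 to 38300706), first known as a gene induced early by TGF-beta and a repressor that recruits SIN3, had 20.66 and 20.01 CPM in KMS, against 35.7 and 29.4 CPM in KM. The KMS libraries agreed to within 1.03-fold and lay under both KM libraries. The fitted difference was -0.68 ± 0.20 (log2, SE), with an edgeR adjusted p of 0.111. Klf6 (chromosome 13, 5861482 to 5870394), a broadly expressed factor induced by injury, had 63.7 and 41.1 CPM in KMS, against 74.2 and 119.4 CPM in KM. The libraries did not overlap, but the gap between KMS replicate 1 and KM replicate 1 was small and most of the difference came from the replicate 2 libraries. The log2 fold change of Klf6 was -0.88 ± 0.31 (SE, edgeR adjusted p = 0.149). It was -0.50 without KM replicate 2, -1.17 without KM replicate 1, -1.20 without KMS replicate 1 and -0.58 without KMS replicate 2.

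Klf5 (chromosome 14, 99298691 to 99315036) promotes proliferation of basal epithelia and is active in collecting duct and urothelium. It was counted 5 and 9 times in KMS, against 22 and 180 times in KM, which is 0.516 and 1.09 CPM in KMS, against 1.19 and 11 CPM in KM. The 95% Poisson intervals, which cover counting error only, were 0.168 to 1.21 and 0.499 to 2.07 CPM in KMS, against 0.743 to 1.80 and 9.46 to 12.7 CPM in KM. KM replicate 1 therefore lay within the intervals of both KMS libraries, and 1 library, KM replicate 2, stood far above the other 3. With all libraries the log2 difference was -2.92 ± 1.11 (SE, edgeR adjusted p = 0.168). It was -0.57 without KM replicate 2, -3.77 without KM replicate 1, -2.43 without KMS replicate 1 and -3.51 without KMS replicate 2. The 9 urothelium and basal keratin markers with a row summed to 1.34 and 2.55 CPM in KMS, against 15.8 and 115 CPM in KM. All 7 of them that were tested lay lower in KMS, and Krt5, Krt14 and Krt15 had 0 counts in both KMS libraries. The 12 collecting duct markers summed to 567 and 356 CPM in KMS, against 594 and 470 CPM in KM. The 2 of highest mean went opposite ways between KM replicates 1 and 2. Krt7 had 70.6 and 138 CPM there, and Slc26a4 94.7 and 75.4 CPM. In bulk RNA, fewer cells of a type and less RNA per cell cannot be told apart. The part of urothelial or collecting duct RNA in the Klf5 values was not tested.

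Klf7 (chromosome 1, 64029447 to 64122282), known from neuronal development, had 8.57 and 5.34 CPM in KMS, against 12.6 and 15.1 CPM in KM (log2 fold change -0.99 ± 0.32 SE, edgeR adjusted p = 0.128). Its libraries did not overlap, and the KMS libraries differed from each other 1.61-fold. Klf13 (chromosome 7, 63886351 to 63938915), a repressor that also activates Ccl5 in T cells, had 36.5 and 28.1 CPM in KMS, against 39.1 and 44.8 CPM in KM (log2 fold change -0.38 ± 0.20 SE, edgeR adjusted p = 0.292). Klf3 (chromosome 5, 64803388 to 64832901), a repressor that binds CtBP proteins, had 5.27 and 3.52 CPM in KMS, against 5.39 and 6.54 CPM in KM (log2 fold change -0.44 ± 0.35 SE, edgeR adjusted p = 0.467). For Klf13 and Klf3 the closest libraries of the genotypes almost met, and both missed an unadjusted edgeR p of 0.05. Klf2 (chromosome 8, 72319033 to 72321656), which maintains quiescent endothelium and lymphocytes, had 36.1 and 29.1 CPM in KMS, against 34.6 and 36.4 CPM in KM. It was the 1 member whose genotypes overlapped (-0.12 ± 0.19 on the log2 scale, SE, edgeR adjusted p = 0.720), and its direction turned to 0.044 ± 0.22 (SE, edgeR adjusted p = 0.936) without KMS replicate 2. Klf4 made up 28.3% and 32.8% of the summed Klf2 and Klf4 CPM in KMS, against 42.5% and 51.2% in KM.

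**Figure D2:**
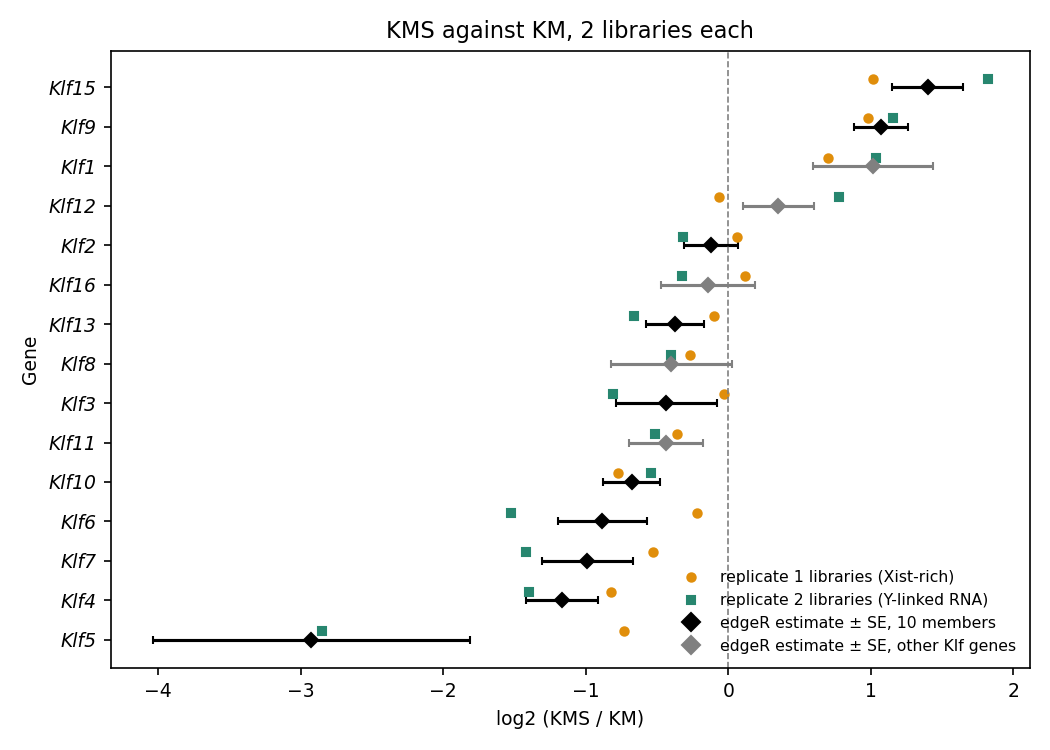
Log2 fold changes of KMS over KM for the 15 Krüppel-like factor genes with a row, as diamonds with SE from edgeR, black for the 10 members and grey for 5 others, with the ratio within the replicate 1 libraries (circles) and within the replicate 2 libraries (squares) above each. Klf9 and Klf15 are positive in both, and for Klf6, Klf7 and Klf5 the replicate 2 ratio is the more negative one.

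The size of most differences depended on which libraries were set against each other. Among the replicate 1 libraries, both rich in Xist, the median log2 ratio of the members was -0.16 (against -0.01 over all tested genes), and among the replicate 2 libraries, both with Y-linked RNA, it was -0.73 (against -0.01 over all tested genes), after adding 0.5 CPM. Klf9 had ratios of 0.98 and 1.16 in these comparisons, Klf15 1.02 and 1.82, Klf4 -0.82 and -1.40, and Klf10 -0.77 and -0.54. Klf6 had -0.22 and -1.53, and Klf7 -0.53 and -1.42. Both ratios were positive for 2 members and both negative for 7. Equal replicate numbers are not stated to share an animal, litter or day, so sex and other differences between these libraries cannot be told apart.

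Shares within a library do not depend on the scaling between libraries. They are given for members already described as higher or lower in KMS, so they restate those differences on another scale. Klf9 and Klf15 together made up 47.3% and 55.4% of the summed CPM of the 10 members in KMS, against 26.6% and 16.4% in KM, while Klf6 made up 18.1% and 12.9% in KMS, against 23.9% and 33.2% in KM. The summed CPM of all 10 overlapped, with 352 and 319 CPM in KMS, against 311 and 360 CPM in KM.

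Levels of different members were compared as CPM per kb of exon of the coding transcripts in GENCODE's basic set. In KMS, Klf15 had the highest per-length level, at 40.5 ± 4.06 CPM per kb, followed by Klf2 at 17.7 ± 2.69, Klf9 at 13.4 ± 0.856 and Klf6 at 12.4 ± 3.78 CPM per kb (SD, n = 2 each). Klf9 and Klf6 overlapped there. Klf10, Klf13 and Klf4 followed at 5.31 ± 0.12, 4.84 ± 0.88 and 4.70 ± 0.01 CPM per kb, and Klf13 overlapped both others. In KM the order began with Klf6 at 22.9 ± 7.56, Klf2 at 19.2 ± 0.70 and Klf15 at 15.3 ± 4.53 CPM per kb, of which Klf6 overlapped both others (SD, n = 2 each). Klf4 and Klf10 followed at 10.5 ± 2.95 and 8.50 ± 1.16 CPM per kb, and Klf4 overlapped both Klf15 and Klf10. Klf9 was 6th in KM, at 6.36 ± 0.97 CPM per kb, beside Klf13 at 6.29 ± 0.60 CPM per kb, whereas it was 3rd in KMS. Klf7, Klf3 and Klf5 held the last ranks in both genotypes, between 0.155 and 0.864 CPM per kb in KMS and between 1.11 and 1.72 CPM per kb in KM. The per-length level of Klf15 was 2.50 and 4.46 times that of Klf6 in the KMS libraries, against 1.06 and 0.430 times in the KM libraries. Against Klf4 it was 8.00 and 9.26 times in KMS, against 2.19 and 0.961 times in KM.

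**Figure D3:**
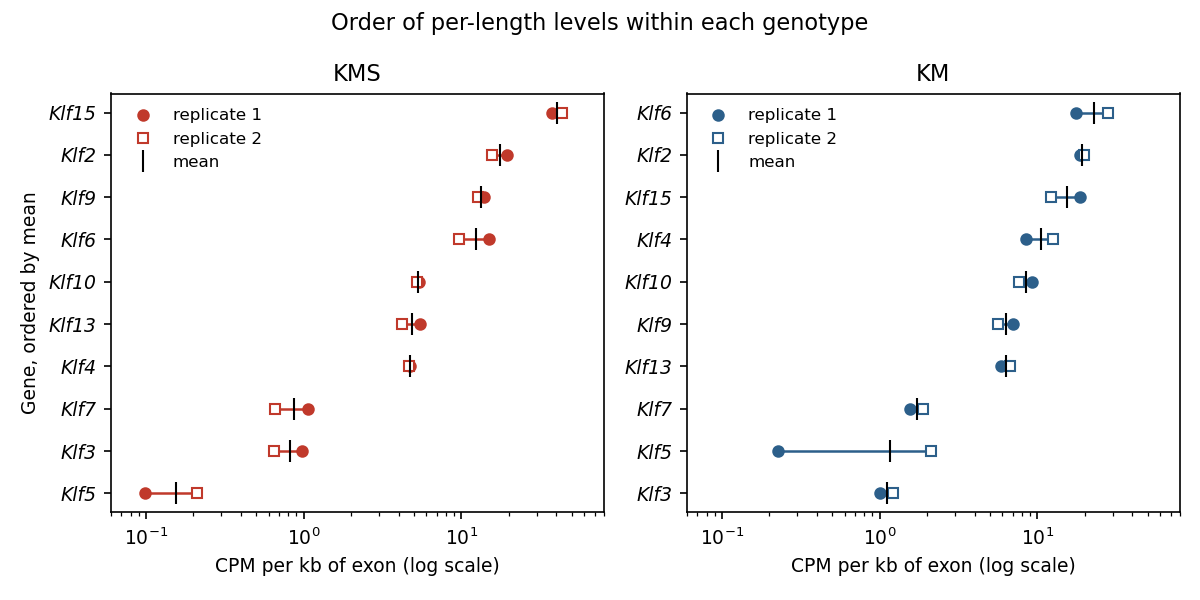
CPM per kb of exon of the 10 members in KMS (left) and KM (right) on the same log axis, with each genotype's genes ordered by mean, replicate 1 filled, replicate 2 open and the mean as a tick. Klf15 stands clear at the top in KMS, where Klf9 is 3rd, and Klf6, Klf2 and Klf15 lead in KM.

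Overlapping genes could affect few of these counts. Klf3, Klf7 and Klf13 have GENCODE genes on the opposite strand within their bounds, and no source used here says whether the counting used strand, so reads of those partners cannot be told from theirs. Transcripts of Klf7 matched Gm26649 over 2826 bases and those of Klf3 matched Gm20033 over 405 bases at 95% identity or more, both overlapping loci without a row, and no other member matched another gene over 300 bases. The longest coding transcripts of 7 members held more ATTTA pentamers than the median of 2 over 12576 tested genes. This pentamer is the core of AU-rich elements that shorten the life of many early-response RNAs. Klf7 had 18 of them, Klf3, Klf6 and Klf9 had 8 each, Klf5 and Klf10 had 5, Klf13 3, Klf15 2, and Klf2 and Klf4 1 each. Klf9, higher by value in KMS, had the same number as Klf3 and Klf6, which were lower by value. RNA stability was not measured.

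Of the 7 other Krüppel-like factor genes looked up, 5 were tested, and 0 passed (edgeR, also 0 at an unadjusted p under 0.05), and their median was -0.14 on the log2 scale. Klf1, the erythroid factor, had 3.72 and 3.28 CPM in KMS, against 2.102 and 1.345 CPM in KM (edgeR adjusted p = 0.193). Klf11, a SIN3-binding relative of Klf10, had 19.4 and 13.6 CPM in KMS, against 25.1 and 19.6 CPM in KM, so the KMS libraries lay below by a narrow gap (edgeR adjusted p = 0.331). Klf12 and Klf8 encode CtBP-binding repressors like Klf3. Klf12 had 27.2 and 34.9 CPM in KMS, against 28.5 and 20.2 CPM in KM, and overlapped. Klf8 had 1.76 ± 0.43 CPM in KMS and 2.33 ± 0.36 CPM in KM, and Klf16 had 7.29 ± 0.67 CPM in KMS and 8.05 ± 2.54 CPM in KM (SD, n = 2 each). Of the Sp factors, which bind the same GC-rich sites, 6 were tested and 0 passed (edgeR, 1 at an unadjusted p under 0.05), with a median of -0.24. Sp1 had 71.1 and 69.3 CPM in KMS, against 71.9 and 73.7 CPM in KM, while Sp3 had 29.3 ± 3.17 CPM in KMS and 39.9 ± 0.095 CPM in KM (SD, n = 2 each), with an edgeR adjusted p of 0.184.

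Genes that act with or upstream of these factors are given by lists of textbook members, in which edgeR called 0 genes. Of all tested genes, 12.2% were higher and 14.1% lower at an unadjusted edgeR p under 0.05. Among 16 cofactors and ubiquitin ligases the median log2 fold change was -0.16, with 1 gene higher and 1 lower at an unadjusted edgeR p under 0.05. These were Sin3b, part of the corepressor that KLF9, KLF10 and KLF13 recruit, at 65.0 ± 4.07 CPM in KMS and 44.6 ± 3.64 CPM in KM, and the acetyltransferase gene Crebbp at 26.4 ± 2.29 CPM in KMS and 50.6 ± 11.5 CPM in KM (SD, n = 2 each). Of the 12 tested genes of the MEK5-ERK5-MEF2 route that induces Klf2 and Klf4, 3 were lower at an unadjusted edgeR p under 0.05 and 0 higher (median -0.10), including Mef2a at 61.0 ± 8.39 CPM in KMS and 87.3 ± 0.51 CPM in KM, and the endothelial receptor gene Heg1 at 57.3 ± 13.1 CPM in KMS and 89.9 ± 7.91 CPM in KM. For the TGF-beta route upstream of Klf10, 11 of 12 tested genes were lower by value (median -0.33), with 5 lower and 0 higher at an unadjusted edgeR p under 0.05. Skil, a feedback inhibitor of SMAD signalling, had the smallest p among them, at 24.8 ± 0.92 CPM in KMS and 47.8 ± 1.94 CPM in KM (SD, n = 2 each).

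Glucocorticoids induce Klf9 and Klf15, and of 12 genes of the glucocorticoid receptor and its classic targets 9 were higher by value in KMS (median log2 fold change 0.22), with 4 higher and 0 lower at an unadjusted edgeR p under 0.05. Of all tested genes, 12.2% were higher and 14.1% lower at that p. The libraries overlapped for 8 of the 12, and for 5955 of the 15002 tested genes. The median log2 ratio of the list was -0.05 between the replicate 1 libraries and 0.34 between the replicate 2 libraries. Dusp1, a phosphatase gene that stress also induces, had 124.2 and 86.2 CPM in KMS, against 34.7 and 43.8 CPM in KM. Errfi1, a feedback inhibitor of the EGF receptor, had 667.3 and 663.8 CPM in KMS, against 283 and 229.4 CPM in KM. Both were separated by genotype and neither passed over all genes (edgeR adjusted p = 0.0752 and 0.0757). All 4 tested genes of the thyroid hormone list were higher by value in KMS (median 0.80) and 0 reached an unadjusted edgeR p under 0.05. The receptor gene Thrb had 28.6 ± 5.21 CPM in KMS and 20.6 ± 2.71 CPM in KM, and Thrsp, a target gene, 2.11 ± 0.08 CPM in KMS and 0.956 ± 0.40 CPM in KM (SD, n = 2 each). Klf9, Klf10 and Klf15 are also known to cycle with the clock, and of 13 tested clock genes 3 were higher and 1 lower at an unadjusted edgeR p under 0.05 (median 0.22). The output factor gene Tef had 3.57 ± 0.96 CPM in KMS and 1.11 ± 0.10 CPM in KM, and Bhlhe41, a repressor of the clock, 3.90 ± 2.08 CPM in KMS and 12.1 ± 6.42 CPM in KM (SD, n = 2 each). The time of day of collection is not given in the labels.

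The 13 tested immediate early genes had a median of -0.22 on the log2 scale and split into 6 higher and 7 lower by value, with 2 higher and 1 lower at an unadjusted edgeR p under 0.05. Of all tested genes, 12.2% were higher and 14.1% lower at that p. The libraries overlapped for 10 of the 13, and for 5955 of the 15002 tested genes. The median log2 ratio of the list was 0.47 between the replicate 1 libraries and -0.97 between the replicate 2 libraries. Fosb had 27.4 and 8.85 CPM in KMS, against 0.647 and 0.917 CPM in KM, and Fos had 88.4 and 32.7 CPM in KMS, against 11.4 and 19.9 CPM in KM (edgeR adjusted p = 0.0662 and 0.101). The KMS libraries differed 3.09-fold from each other for Fosb and 2.70-fold for Fos. For the members named above as quickly induced they differed 1.55-fold (Klf6), 1.03-fold (Klf10) and 1.004-fold (Klf4).

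Genes described elsewhere as targets, mostly in other tissues, were looked up as lists in which edgeR called 0 genes. Of all tested genes, 12.2% were higher and 14.1% lower at an unadjusted edgeR p under 0.05. Of 13 tested genes described for KLF15, 11 were higher by value in KMS (median log2 fold change 0.65), with 5 higher and 0 lower at an unadjusted edgeR p under 0.05. They included the glucose transporter gene Slc2a4 at 26.6 ± 9.93 CPM in KMS and 8.11 ± 3.25 CPM in KM, and Bckdha, of branched-chain amino acid breakdown, at 331 ± 1.94 CPM in KMS and 168 ± 39.5 CPM in KM (SD, n = 2 each). Proximal tubule markers, many of them genes of the same metabolic cells, summed to 20150 and 17230 CPM in KMS, against 9664 and 7021 CPM in KM. All 12 of these markers lay higher in KMS, with a median of 1.28, as for Miox at 2271 ± 36.3 CPM in KMS and 849 ± 235 CPM in KM, and Aqp1 at 518 ± 23.1 CPM in KMS and 208 ± 59.4 CPM in KM. Slc34a1 and Lrp2, their most abundant members, had 5986 ± 825 and 2404 ± 176 CPM in KMS, against 2522 ± 409 and 1387 ± 457 CPM in KM. The median of the proximal tubule markers was close to the log2 fold change of Klf15, and the part of tubule content in the Klf15 and Klf9 values was not tested. The 10 markers of loop of Henle and distal nephron were also all higher by value (median 1.204), with sums of 7754 and 4794 CPM in KMS, against 4442 and 1329 CPM in KM.

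Of 11 tested genes described for KLF5, 7 were lower and 0 higher at an unadjusted edgeR p under 0.05 (median -1.25). Pdgfa had 8.01 ± 0.35 CPM in KMS and 27.9 ± 9.17 CPM in KM (SD, n = 2 each), and the tight junction gene Cldn4 13.6 and 8.37 CPM in KMS, against 33.6 and 72.1 CPM in KM. That list shares Krt5 and Krt15, at 0 counts in KMS, with the urothelial markers, and its median is the same with both at the bound that 3 counts over the KMS libraries give. Of 12 genes described for KLF2 and KLF4, 6 were higher and 6 lower by value (median -0.45). Both KMS libraries lay above both KM libraries for 3 and below them for 6, as they did for 29.0% and 31.3% of all tested genes. At an unadjusted edgeR p under 0.05, 6 were lower and 0 higher. The adhesion genes Vcam1 and Sele, which KLF2 and KLF4 are known to repress in endothelium, had 9.33 ± 3.75 and 5.36 ± 2.78 CPM in KMS, against 61.3 ± 21.4 and 24.4 ± 5.49 CPM in KM (SD, n = 2 each). Vcam1 is also on the list of injured tubule markers, as is Cdkn1a, which both this list and the one that follows hold. The remaining 12 tested genes, described for KLF3, KLF6, KLF7, KLF9, KLF10 or KLF13, had a median of -0.34, with 1 lower and 0 higher at an unadjusted edgeR p under 0.05. This was the cell cycle inhibitor gene Cdkn1a at 13.6 ± 6.51 CPM in KMS and 30.6 ± 6.53 CPM in KM, and Lgals3, which KLF3 represses, had 33.5 ± 9.45 CPM in KMS and 49.0 ± 9.51 CPM in KM (SD, n = 2 each).

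Markers of the cell types in which members are known to act were set beside them. Of all tested genes, 12.2% were higher and 14.1% lower at an unadjusted edgeR p under 0.05. The 14 endothelial markers had a median of -0.08 on the log2 scale, with 0 genes at an unadjusted edgeR p under 0.05. By value 5 were higher and 9 lower in KMS. The 2 of smallest p were higher ones. Cldn5 had 29.05 ± 1.80 CPM in KMS and 17.2 ± 7.02 CPM in KM, and Egfl7 55.3 ± 12.5 and 40.8 ± 5.53 CPM. Kdr, among the most abundant, had 257 ± 122 CPM in KMS and 307 ± 33.7 CPM in KM (SD, n = 2 each). The summed level of the endothelial markers overlapped between the genotypes, as did Klf2, whereas Klf4 did not overlap. The 10 podocyte markers were all higher by value in KMS (median 0.62), with 1 at an unadjusted edgeR p under 0.05, Clic5 at 273 ± 19.4 CPM in KMS and 172 ± 47.8 CPM in KM. The 12 injured tubule markers were all lower by value, with a median of -2.38 and sums of 3270 and 1277 CPM in KMS, against 4230 and 9876 CPM in KM. The 10 tested leukocyte markers and 10 tested mesenchymal and smooth muscle markers were all lower by value as well, with medians of -1.11 and -0.79. The leukocyte markers summed to 281 and 174 CPM in KMS, against 362 and 612 CPM in KM, and the mesenchymal markers to 139 and 145 CPM in KMS, against 231 and 276 CPM in KM. The injured tubule and leukocyte sums both had the same order over the libraries as Klf3, Klf4, Klf6, Klf7 and Klf13. These sums and members were highest in KM replicate 2 and lowest in KMS replicate 2, though Klf4 was almost equal in the KMS libraries. The 11 tested collecting duct markers split into 6 higher and 5 lower by value (median 0.02). At an unadjusted edgeR p under 0.05, 3 were higher and 2 lower. The 2 of smallest p were the lower ones. Atp6v1g3 had 35.5 ± 7.88 CPM in KMS and 91.2 ± 10.2 CPM in KM, and Gata3 had 12.6 ± 4.73 CPM in KMS and 32.5 ± 0.67 CPM in KM (SD, n = 2 each). What part of the member differences these shifts in other cell types carry was not tested.

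**Figure D4:**
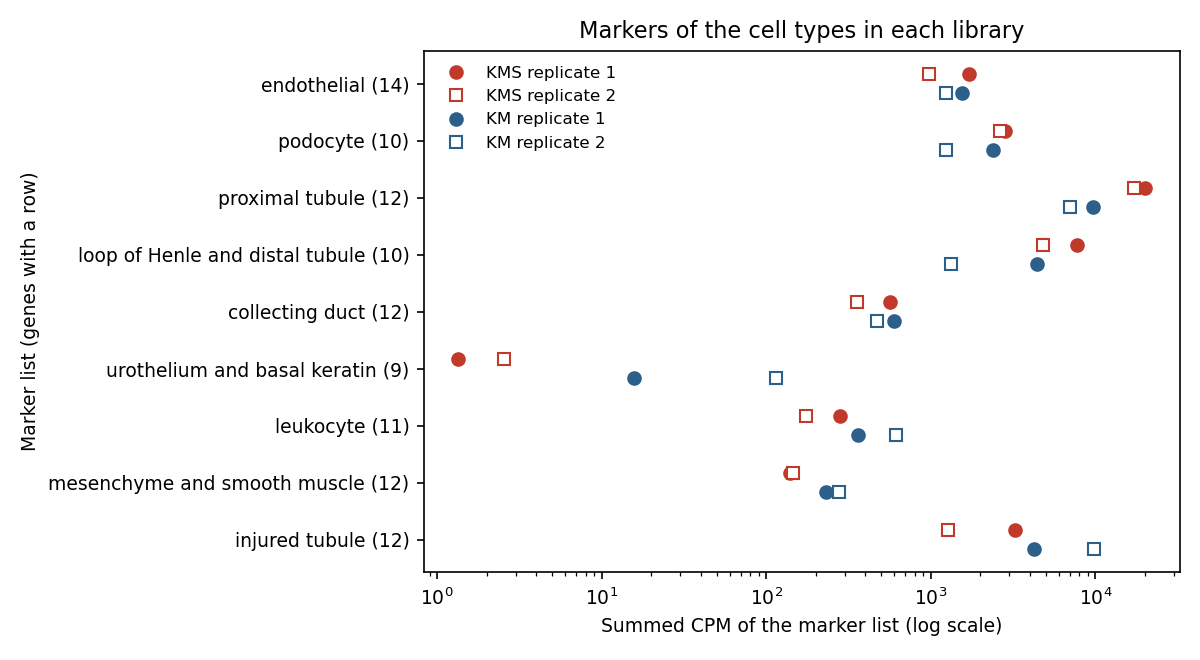
Summed CPM of each cell type marker list in each library on a log axis, KMS in red above KM in blue, replicate 1 filled and replicate 2 open, with the number of genes with a row in brackets. Proximal tubule sums lie higher in both KMS libraries, urothelium and basal keratin sums reach 115 CPM in KM replicate 2 alone, and endothelial sums overlap.

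The verdict on single members depended on the model. The adjusted p over all genes passed 0.05 in the DESeq2 Wald test for Klf15 (9e-05), Klf9 (0.000829), Klf4 (0.0117) and Klf5 (0.0486), where 11.1% of tested genes were called. With replicate number as a block edgeR called 3 members and 5.43% of tested genes. Without KM replicate 1 it called 5 members and 11.5% of genes, and without KM replicate 2 it called 0 members and 1.14% of genes. In limma-voom no member passed (lowest adjusted p = 0.0950), and 6 members had an unadjusted p under 0.05, as did 23.8% of tested genes. Klf7, Klf10, Klf13, Klf3 and Klf2 did not pass in any of the 13 alternatives run, and the lowest adjusted p of Klf10 among them was 0.103.

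**Figure D5:**
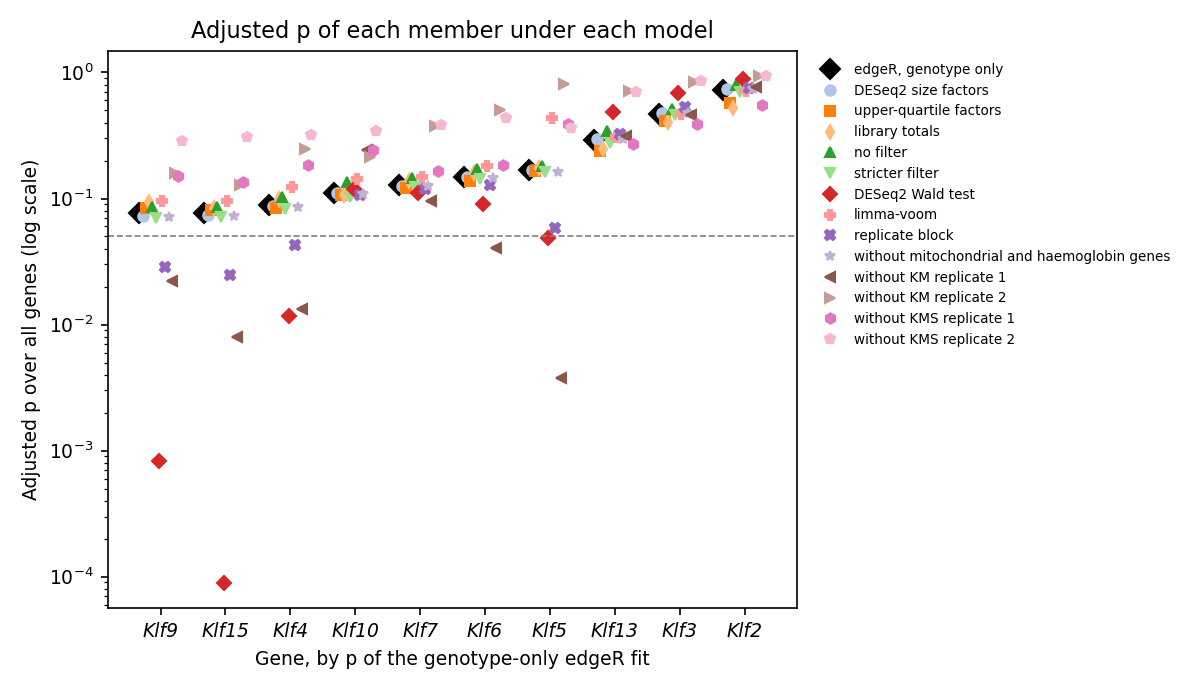
Adjusted p of each member over all genes tested (log axis) in the edgeR fit with genotype alone (black diamonds) and in each alternative (coloured markers), with the dashed line at 0.05. The black diamonds all lie above the line, and those of Klf9 and Klf15 at 0.0766 and 0.0769 lie closest to it.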

How the data were processed

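The labels' protocols give Trizol extraction, poly(A) selection and a directional library kit. Tools listed in the submitters' processing notes, without roles, are HISAT2, StringTie, MACS2 2.1.1, FastQC, Trimmomatic 0.35 and cutadapt 1.9.1, with the build GRCm38 (mm10). The program that counted reads is not given. The deposited table holds raw read counts per gene for each library, per the file headers. Its other columns are the authors' mean signal per group, their fold change as a ratio, its log2 value, and a deposited p-value with its adjusted form. A second deposited sheet was not used, and 0 value columns were left unmapped.

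Counts of 15002 genes passing filterByExpr (minimum count 10, minimum total 15) entered edgeR 4.0.16 (R 4.3.3) (TMM factors, quasi-likelihood F test, genotype as the only term, Benjamini-Hochberg over all tested genes, called under an adjusted p of 0.05). SE were derived from the F statistic, and log2 ratios between single libraries were taken after adding 0.5 CPM. The labels do not give the number of animals, but Xist and Y-linked counts differ between the replicates of each genotype as between sexes, so these were not the same animal. The p-values rest on 2 libraries per genotype, and for 2 against 2 a permutation cannot give a two-sided p under 0.333. Replicates differed by more than sampling noise (chi-square per degree of freedom 40.1 in KMS and 53.6 in KM). Alternatives were other scalings and filters, DESeq2 1.42.0, limma-voom (limma 3.58.1), omission of each library, a replicate block, and removal of mitochondrial and haemoglobin genes. The fits were tested on simulated counts in which 200 of 15002 genes were changed. There edgeR with genotype alone found 13 of 100 2-fold changes and 79 of 100 4-fold changes, and called 0 unchanged genes. Most 2-fold changes were thus missed in that simulation.

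The members and the 23 gene lists were chosen with earlier results of these data known. Named are all members, the other Krüppel-like factors with a row, Sp1 and Sp3, and the members of smallest p of each other list, with the most abundant ones of some marker lists. Positions and exon lengths come from GENCODE M21 (GRCm38), promoters from RefSeq (GRCm38.p6), and copies were sought with blastn 2.17.0. Protein sequences were not used here. The values of 1 listed gene are not reported here.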

Additional observations from a re-analysis of the deposited data

Results flagged for a closer look

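For 3 genes of the family the log2 ratio of KMS over KM had opposite signs in the libraries rich in Xist and in those with Y-linked RNA. It was 0.06 and -0.32 for Klf2, -0.07 and 0.78 for Klf12, and 0.12 and -0.32 for Klf16. The difference was not tested, since each comparison rests on 1 library per genotype, and the ratios near 0 are smaller than the SE of the fitted fold changes.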

How the results depend on the processing

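The count of 5 called genes in the whole table became 3 with library totals, 1 with limma-voom, 1767 with the DESeq2 Wald test, 815 with the replicate block and 1216 at an adjusted p under 0.1, and ran from 0 to 1788 when 1 library was left out. The count of 0 called members became 4 with DESeq2, 3 with the replicate block and 3 at an adjusted p under 0.1, and ran from 0 to 5 when 1 library was left out, with all 5 reached without KM replicate 1. The block called Klf15, Klf9 and Klf4 (edgeR adjusted p = 0.0247, 0.0287 and 0.0427). Equal replicate numbers are known to share only a number and, by Xist, a sex. Without sex genes, the deviations of the replicate 1 libraries from their group means correlated at 0.0657 over 14997 genes. With 2 libraries per genotype this value cannot show whether a litter or day was shared. The median of the members ranged from -0.69 to -0.38 over the left-out libraries. With library totals the median of all genes was -0.13 and that of the members -0.68, a distance of -0.54 as against -0.55 with TMM factors. Of 130 refits of single members, 129 kept their direction, and Klf2 reversed, running from -0.249 to 0.044 over the left-out libraries, positive without KMS replicate 2. In fits without 1 library the lone sample of its genotype is assumed to vary like the others. Depth limits Klf5 most, with 5 and 9 counts in KMS.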
